A study of Mus musculus with 6 samples.

Results

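The data compared cardiomyocyte (CM) nuclei from hearts given YAP5SA, an active form of the Hippo pathway effector YAP, with nuclei from hearts given GFP, across the whole transcriptome. Wildtype ICR mice of 6 d of age received 1e+11 viral genomes of AAV9 under the skin. The vector carried GFP or YAP5SA under the cTnT (cardiac troponin T) promoter, which is active in CMs, and the hearts were taken at 9 d. CM nuclei were enriched with an antibody against PCM1, and their poly-A RNA was sequenced without strand information. There were 2 GFP and 2 YAP5SA libraries among the 6 of the series. The 2 others, from YAP6SA hearts, entered the model only to help estimate the spread. Each group held 1 library of batch 1 and 1 of batch 2, so replicate 1 of each group was compared within batch 1 and replicate 2 within batch 2. A library was labelled by its virus and batch. The series' own description gives 2 hearts for each virus and does not say which heart went into which library. The filter asked for a median over 1 in GFP or in YAP5SA on the log2 CPM scale (CPM, reads of a gene scaled to the library's total on genes), which left 13174 of the 54532 genes in the table. Of these, 12152 passed in both groups, 338 in GFP alone and 684 in YAP5SA alone.

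YAP is a transcriptional coactivator that the Hippo kinases LATS1 and LATS2 hold in the cytoplasm by phosphorylating its serines. In YAP5SA those serines are alanines, so the protein enters the nucleus and acts with TEAD factors, which bind DNA. CMs of the newborn mouse leave the cell cycle within days of birth and turn to fatty acids as their main fuel, and Hippo signalling is known as one of the restraints on their division.

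The libraries held between 14552847 and 18832871 reads on genes, and a count of 0 in them allows a level of up to 0.159 to 0.206 CPM (3 counts, counting error only). *Yap1* was measured at 139 and 130 CPM in the GFP libraries and at 138 and 102 CPM in the YAP5SA libraries of batches 1 and 2. The groups overlapped, and the log2 fold change was -0.17 ± 0.16 (standard error, SE; edgeR quasi-likelihood test, adjusted p = 0.489). *Yap1* counts thus did not set the YAP5SA libraries apart, and whether reads of the vector were counted on *Yap1* was not tested. *Xist*, the RNA of the inactive X chromosome, stood at 0.0526 and 0 CPM in the batch 1 libraries of GFP and YAP5SA and at 610 and 577 CPM in those of batch 2. The Y-linked *Ddx3y* was measured in all 4, at 125 and 96.4 CPM in GFP and 159 and 85.5 CPM in YAP5SA. The batch 2 libraries thus held both RNAs and the batch 1 libraries *Ddx3y* almost without *Xist*, in GFP and YAP5SA alike. Whether a batch 2 library held nuclei of both sexes, and so of more than 1 heart, was not tested, and batch and the *Xist* difference cannot be told apart. A principal component analysis of the 4 libraries put 77.6% of the variance on its first axis, where GFP lay at -43.3 and -53.2 and YAP5SA at 31.1 and 65.3.

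Of the genes kept, 22.2% differed between YAP5SA OE CMs and GFP. A gene is called here when its adjusted p (Benjamini-Hochberg over all genes kept) was under 0.05. At that threshold 1708 genes (13.0% of those kept) were higher in YAP5SA OE CMs than in GFP and 1221 (9.27%) were lower. All of them differed in the same direction in both batches, which a test that compares within batches favours. Over all genes kept, 75% had the same sign in both batches. The rises among called genes were the larger changes. Their median on the log2 scale was 1.24, against -0.83 among those called lower and -0.0031 over all genes kept. A change of at least 2-fold was seen in 1080 of the genes called higher and in 414 of those called lower, and one of at least 4-fold in 409 and 35. The GFP and YAP5SA libraries did not overlap for 1698 and 1211 of the called genes, whereas over all genes kept both YAP5SA libraries lay above both GFP libraries for 31.4% and below them for 30.0%. Where the groups of a called gene are said below to be apart, this describes the values and adds no support to the call.
The genes called higher took 8.17% and 7.6% of the counts of the GFP libraries, and 15.5% and 21.3% of those of the YAP5SA libraries. The genes called lower went the other way, from 19.9% and 19.5% in GFP to 13.2% and 9.93% in YAP5SA.
In batch 2 the difference was the larger one for 85.1% of the genes called higher and 84.3% of those called lower. The median differences within batches 1 and 2 were 0.95 and 1.48 on the log2 scale for genes called higher, and -0.63 and -1.03 for genes called lower. Without GFP replicate 2 only 618 genes were called higher and 214 lower, and without YAP5SA replicate 2 there were 1063 and 621. Leaving out GFP replicate 1 gave 1247 and 698, and leaving out YAP5SA replicate 1 gave 2513 and 2264.

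**Figure D1:**
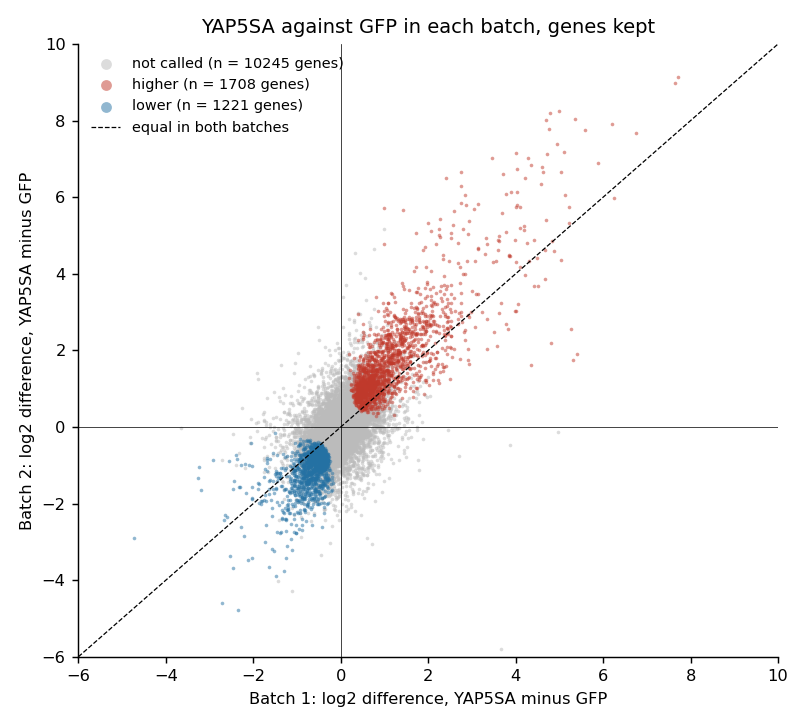
Log2 difference between the YAP5SA and GFP library of batch 1 (x axis) and of batch 2 (y axis), with 1 point for each of the 13174 genes kept. The 1708 genes called higher (red) and the 1221 called lower (blue) lie on the same side of 0 in both batches, and most lie on the batch 2 side of the dashed line of equal differences.

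The genes raised most were close to silent in GFP. *Myh8*, the perinatal skeletal myosin heavy chain (ENSMUSG00000055775, chromosome 11 of GRCm38, 67277124 to 67308634, plus strand), had 0.0526 and 0 CPM in the GFP libraries and 35.5 and 65.4 CPM in the YAP5SA libraries, a ratio of 1776 (95% counting interval 318 to 70193). *Myh2* and *Myh1*, the myosins of fast adult fibres, lie beside it and had no count in either GFP library. *Myh2* reached 23 and 58.2 CPM in YAP5SA and *Myh1* 8.41 and 27.9 CPM, which is at least 230-fold and 103-fold higher than a floor of 3 counts in each GFP library. *Myh1* and *Myh2* overlap noncoding models on the opposite strand, and the myosins resemble each other in sequence.
*Atp6v1c2*, a subunit of the proton pump of acidic organelles, was also at 0 in GFP and at 12.4 and 23.5 CPM in YAP5SA, at least 102-fold higher. It overlaps *Pdia6* on the opposite strand, itself called higher, and the libraries do not mark strand. *Igfbp2*, a secreted binding protein of insulin-like growth factors, went from 0.105 and 0 to 8.88 and 30.4 CPM, a ratio of 352 (counting interval 97.2 to 2916).
Further genes of this kind had low GFP levels and no overlap with YAP5SA. *Arhgef16*, a guanine nucleotide exchange factor, rose from 1.63 and 0.849 to 60.3 and 141 CPM (log2 fold change 6.15 ± 0.41 SE, adjusted p = 5.9e-05). The zinc finger gene *Zbtb8b* went from 1.26 and 0.392 to 44 and 155 CPM, and *Scel*, which encodes sciellin of stratified epithelia, from 0.841 and 0.131 to 26.1 and 72.6 CPM. *Nog*, the secreted BMP antagonist noggin, rose from 0.263 and 0.0653 to 7.55 and 20.7 CPM. The remaining genes of the top 15 were *Tmem130*, *Serpinb9b*, *Vnn1*, *Cdk15*, *Gm2694* and *A730049H05Rik*, with log2 fold changes from 6.93 to 8.32. Of these, *A730049H05Rik*, *Gm2694* and *Serpinb9b* overlap models on the opposite strand. In all, 14 of the genes called higher had 0 counts in both GFP libraries.

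The strongest losses were smaller and began from moderate levels. *Gnb3*, a G protein beta subunit, fell from 16.6 and 27.3 to 3.97 and 2.46 CPM. *Kcnip2* (KChIP2), the subunit that cardiac transient outward potassium channels depend on, went from 460 and 641 to 188 and 47 CPM (-2.39 ± 0.49 SE, adjusted p = 0.00888). For both, the YAP5SA libraries lay below both GFP libraries.
*Nr0b2* (SHP), a corepressor of nuclear receptors, fell from 15.8 and 21.4 to 7.49 and 3.07 CPM, and *Asb5*, a muscle gene of the SOCS box family, from 11.4 and 11.9 to 3.38 and 3.02 CPM. Among the 15 lowered most were also *Aspdh*, *Smco1*, *Phf24*, *Srrm4*, *Lgi3*, *Tmc7* and the poorly known *6820408C15Rik*, *2310040G24Rik*, *9330102E08Rik* and *Gm42970*, whose log2 fold changes ran from -2.57 to -1.95. *Srrm4* and *Nr0b2* were no longer called without GFP replicate 2, whereas the other genes named here of both sets of 15 were called whichever of the 4 libraries was left out. *Gm42970* lies inside another gene model.

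**Figure D2:**
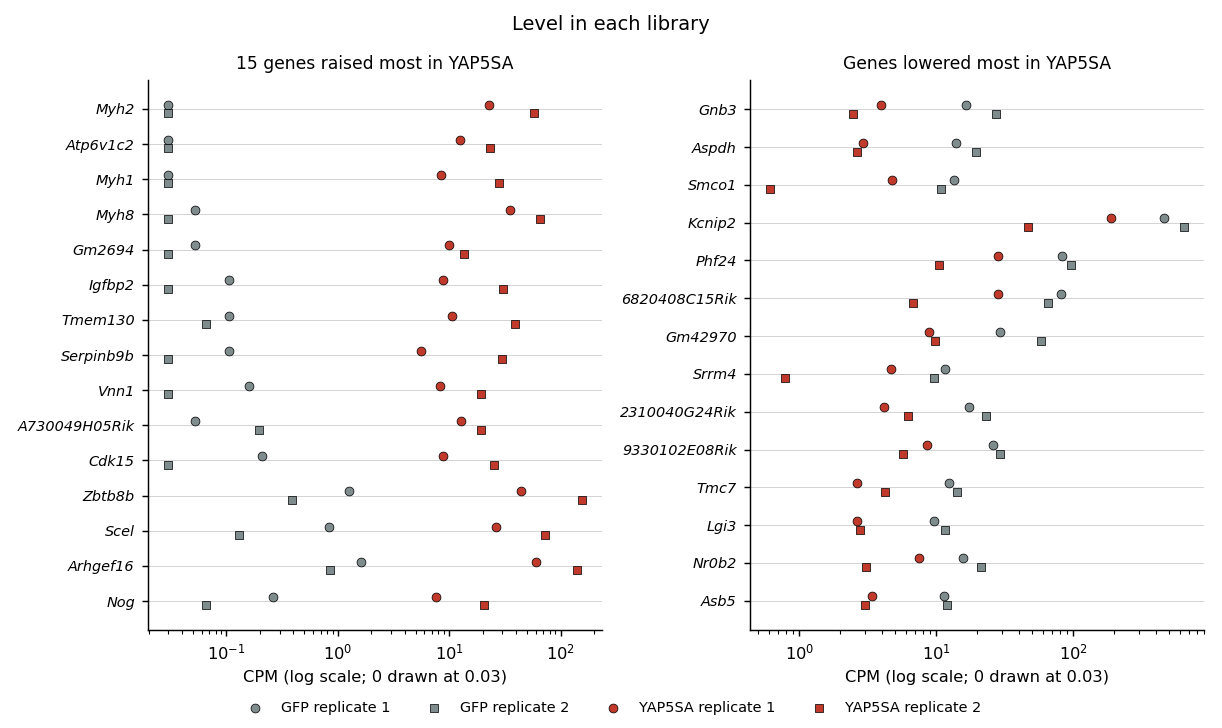
Level (CPM, log scale) of the 15 genes raised most and of genes lowered most, in each library. Grey marks are GFP and red marks YAP5SA, and circles are replicate 1 (batch 1) and squares replicate 2 (batch 2); no gene shown has overlapping groups.

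Among the 10 most abundant genes called higher, 4 were mRNAs of the mitochondrial genome and the other 6 mostly served muscle structure and the cytoskeleton. *Ankrd1*, a stretch-responsive protein of the sarcomere and a TEAD target, rose from 726 and 874 to 3425 and 4801 CPM. *Tpm1*, the main cardiac tropomyosin, went from 1820 and 1991 to 3511 and 3296 CPM, and *Phldb2*, which anchors microtubules at the cell cortex, from 600 and 868 to 1724 and 2953 CPM. *Sptan1* (spectrin), *Agrn* (agrin, a matrix proteoglycan) and *Actb* (cytoplasmic actin) were raised by 1.54, 0.94 and 0.85 on the log2 scale.
The most abundant gene called lower was *Ivns1abp*, a Kelch protein, at 9464 and 9680 CPM in GFP and 4500 and 3324 CPM in YAP5SA (-1.30 ± 0.26 SE, adjusted p = 0.00836). *Speg*, a kinase of the junctional membranes, fell from 2681 and 2845 to 1704 and 1087 CPM. *Cluh*, an RNA-binding protein of mRNAs for mitochondrial proteins, fell from 1899 and 1890 to 1081 and 767 CPM. *Txnip*, which restrains glucose uptake, was the exception among these in that batch 1 showed the larger fall, from 2032 to 491 CPM against 1471 to 1106 CPM in batch 2, and it was not called without GFP replicate 1 or YAP5SA replicate 1. It overlaps a model on the opposite strand. *Myo18b*, *Dmpk*, *Dgkz*, *Vldlr* and *Ryr2* were also among the 10 most abundant, with log2 fold changes from -1.10 to -0.81. Of the lowered genes named here, only *Txnip* was called without GFP replicate 2. Among the raised ones *Ankrd1*, *Phldb2* and *Sptan1* were called without it and *Tpm1*, *Actb* and *Agrn* were not.

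Known YAP/TEAD targets were mostly higher. Of 34 target genes kept, 25 were called higher and 0 lower (median 1.20 on the log2 scale). Among the 34, 3 passed the filter through YAP5SA alone. *Ccn2* (CTGF), a secreted matricellular protein, stood at 99.7 and 42.6 CPM in GFP and 506 and 955 CPM in YAP5SA (3.33 ± 0.43 SE, adjusted p = 0.00109), and its relative *Ccn1* (CYR61) at 126 and 87.6 against 250 and 656 CPM (1.96 ± 0.36 SE, adjusted p = 0.00558). The rise in batch 2 was larger in both. *Wwc1* (KIBRA), which promotes LATS activity, went from 0.999 and 0.718 to 18.2 and 58.9 CPM.
In the Hippo pathway itself 10 of 31 genes were called higher and 1 lower (median 0.40). Of the 31, 5 passed the filter through YAP5SA alone, so this share is set in part by the filter. TEAD factors and their cofactors changed unequally. *Tead4*, of low level in GFP at 1.47 and 1.96 CPM, reached 13.4 and 23 CPM (3.37 ± 0.34 SE), while *Tead1* went from 221 and 238 to 312 and 483 CPM (0.77 ± 0.18 SE, adjusted p = 0.016). The TEAD cofactors *Vgll3* and *Vgll2* rose from 1.26 and 1.24 to 23.4 and 72.5 CPM and from 0.105 and 0.0653 to 2.12 and 4.86 CPM. *Amotl2*, an angiomotin that binds YAP at junctions, rose from 138 and 137 to 679 and 1402 CPM (2.83 ± 0.25 SE). The YAP paralog *Wwtr1* (TAZ) stayed within overlapping values of 23.8 and 18.1 CPM in GFP and 21.3 and 23.2 CPM in YAP5SA (adjusted p = 0.769).
Of the 30 distinct genes of both lists called higher, 21 were called without GFP replicate 2, 25 without YAP5SA replicate 2, and 20 whichever of the 4 libraries was left out. The 1 gene called lower was not called without GFP replicate 1, GFP replicate 2 or YAP5SA replicate 2.

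The promoters of *Ankrd1* and *Ccn1* are shown because both genes are targets of this kind and both hold the TEAD element GGAATG, in capitals, within 250 bases before the start. Each is given 5′ to 3′ on the strand of its gene (RefSeq on GRCm38.p6, chr19:36119845-36120094 and chr3:145649986-145650235, both minus strand). In *Ankrd1* the matches begin 210 and 123 bases before the start, and in *Ccn1* the match begins 103 bases before it, on the opposite strand.
Ankrd1: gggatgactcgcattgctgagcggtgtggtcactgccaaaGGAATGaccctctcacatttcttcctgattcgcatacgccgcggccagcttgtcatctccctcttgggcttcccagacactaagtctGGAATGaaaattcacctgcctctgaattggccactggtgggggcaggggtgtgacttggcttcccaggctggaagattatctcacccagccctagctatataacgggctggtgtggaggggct
Ccn1: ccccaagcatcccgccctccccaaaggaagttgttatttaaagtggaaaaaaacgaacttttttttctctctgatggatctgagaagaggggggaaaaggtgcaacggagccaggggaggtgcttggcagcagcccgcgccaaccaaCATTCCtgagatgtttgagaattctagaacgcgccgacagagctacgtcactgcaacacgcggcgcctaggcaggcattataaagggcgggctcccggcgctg
Over the 9432 kept genes with a promoter in RefSeq's table (250 bases before to 50 after the start), the element was present on either strand in 14.7% of the 1214 promoters of genes called higher, 10.8% of the 869 of genes called lower, 11.8% of all, and 14.7% of the 32817 promoters of the whole table. Among the 17 promoters of YAP/TEAD targets called higher it was present in 7 (41.2%). These shares are descriptions, and a match in these letters is not a measured site.

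Genes of the serum response and of actin assembly had more higher than lower calls. SRF and its MRTF cofactors switch on cytoskeletal genes when actin polymerises, and 15 of their 27 target genes kept were called higher and 1 lower (median 0.75). *Acta2*, smooth muscle actin (ENSMUSG00000035783), was raised from 272 and 142 to 1842 and 1349 CPM (2.99 ± 0.22 SE, adjusted p = 9.4e-05), *Cnn2* (calponin) from 39.9 and 26 to 214 and 265 CPM, and the cytoskeletal tropomyosin *Tpm4* from 28.4 and 17.6 to 78.1 and 100 CPM. The groups were apart in all 3. By contrast the striated muscle actins gave 72.6 and 11.3 against 62.1 and 12 CPM for *Acta1* and 3819 and 3049 against 4145 and 2441 CPM for *Actc1*, with overlap in both and adjusted p of 0.842 and 0.832.
Actin assembly and crosslinking genes were called higher in 13 of 35, with 0 lower. The thymosins *Tmsb10* and *Tmsb4x*, which bind actin monomers, went from 46.4 and 50.9 to 111 and 224 CPM and from 89.1 and 92.5 to 197 and 396 CPM. The formin *Fmnl2* was raised by 1.72 on the log2 scale and the crosslinker *Actn4* by 0.93.
The nonmuscle myosin light chain *Myl12a* rose from 84.2 and 61.6 to 194 and 246 CPM, and it is close in sequence to *Myl12b* and overlapped by models on the opposite strand. In the tubulins 5 of 12 were called higher and 2 lower. *Tuba1a* rose from 26 and 23.1 to 61.6 and 101 CPM, and *Tuba1b*, of nearly the same sequence, from 43.1 and 41.9 to 90.7 and 169 CPM. The muscle isotype *Tuba8* instead fell from 33.4 and 34.7 to 13.7 and 6.43 CPM and *Tuba4a* from 326 and 331 to 173 and 109 CPM.
Immediate early genes, the first to answer growth signals, were called higher in 15 of 26 and lower in 0. *Maff* rose from 2.16 and 2.42 to 14.8 and 33.9 CPM. *Nr4a3* differed between batches, at 0.526 and 1.11 CPM in GFP and 25.3 and 4.02 CPM in YAP5SA (3.66 ± 0.82 SE, adjusted p = 0.0132).

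Matrix and adhesion genes moved less evenly. In collagens and matrix 12 of 35 genes were called higher and 2 lower (median 0.36), and the largest change was that of *Col12a1*, a collagen of tissues under tension, from 5.94 and 2.55 to 119 and 347 CPM (5.65 ± 0.54 SE, adjusted p = 2.9e-04). *Spp1* (osteopontin) followed, from 0.158 and 0.0653 to 0.927 and 4.58 CPM (4.30 ± 1.08 SE, adjusted p = 0.0202), and then *Thbs1* (thrombospondin), from 11.9 and 2.02 to 32.4 and 109 CPM (3.62 ± 0.81 SE). *Spp1* was not called without GFP replicate 2, and without YAP5SA replicate 2 it fell below the filter. Integrins and adhesion genes were called higher in 9 of 27 and lower in 1, against 13.0% and 9.27% over all genes kept. Of the 27, 3 passed the filter through YAP5SA alone, which sets the share in part. *Itgb1*, the common beta subunit, rose from 89.7 and 74 to 159 and 170 CPM, and *Cd44*, the hyaluronan receptor, from 6.2 and 4.77 to 17.2 and 26.4 CPM.
Over all lists of the cytoskeleton, adhesion and matrix, 76 distinct genes were called higher and 8 lower of 184 kept. Without GFP replicate 2, 33 of the 76 and 3 of the 8 were called, and without YAP5SA replicate 1 all 76 and 7. Without YAP5SA replicate 2 there were 54 and 5, and without the replicate block 62 and 4.

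The CArG box, the element bound by SRF, was found in 3 of the 12 promoters of serum response genes called higher, in 1.48% of promoters of all genes called higher in 1.31% of all promoters of genes kept and in 1.63% of the whole table. *Cnn2*, shown for its place among the serum response genes raised most, holds one that begins 56 bases before the start (RefSeq on GRCm38.p6, chr10:79988350-79988599, plus strand), here in capitals.
Cnn2: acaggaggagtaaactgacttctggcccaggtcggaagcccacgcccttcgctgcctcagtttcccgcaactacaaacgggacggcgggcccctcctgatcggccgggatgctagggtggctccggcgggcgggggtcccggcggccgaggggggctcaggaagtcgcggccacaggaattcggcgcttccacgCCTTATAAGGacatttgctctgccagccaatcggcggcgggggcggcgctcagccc

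Cell cycle genes were called in one direction. Over 12 lists from origin licensing to cytokinesis and repair, 171 of 246 distinct genes kept were called higher and 0 were called lower. The shares over all genes kept were 13.0% higher and 9.27% lower. In the lists of origin licensing, the replication fork and deoxynucleotide supply, 1 gene each passed the filter through YAP5SA alone. Origin licensing genes were called higher in 19 of 22 (median 1.71). *Cdc6*, which loads the MCM helicase on origins, rose from 2.52 and 2.68 to 10.1 and 17.7 CPM, *Orc1*, a subunit of the origin recognition complex, from 3.94 and 3 to 13.1 and 25 CPM, and the helicase subunit *Mcm3* from 5 and 4.5 to 19.3 and 35.3 CPM. None of the 3 had overlapping groups.
At the replication fork 19 of 28 genes were called higher (median 1.05). *Uhrf1*, which copies DNA methylation behind the fork, went from 15.1 and 14.2 to 66.2 and 98.3 CPM (2.48 ± 0.22 SE, adjusted p = 2.3e-04), and the histone chaperone subunits *Chaf1a* and *Chaf1b* rose by 2.61 and 2.49. Of the deoxynucleotide supply 10 of 18 were called higher, led by *Rrm2*, the S phase subunit of ribonucleotide reductase, from 7.2 and 4.44 to 28.7 and 48.6 CPM. *E2f1*, the factor that switches on S phase genes, rose from 3.89 and 3.2 to 20.9 and 28.9 CPM, and *E2f7*, a repressor of the same family, from 3.94 and 3.39 to 11.1 and 23.2 CPM. The list of E2F, FOXM1 and MYB regulators had 8 of 19 called higher.
Cyclins and CDKs were called higher in 12 of 18. *Ccna2*, the cyclin of S and G2 phase, stood at 8.52 and 7.57 CPM in GFP and 21.3 and 25.5 CPM in YAP5SA, and the mitotic cyclin *Ccnb1* at 14.9 and 5.42 against 31.6 and 36.3 CPM. *Cdk1*, their catalytic partner, rose from 16.1 and 8.81 to 40.5 and 60.6 CPM (2.04 ± 0.31 SE, adjusted p = 0.00229). *Ccnd1*, the G1 cyclin, had 2.89 and 1.63 against 3.91 and 5.37 CPM and was not called (adjusted p = 0.122), and neither was the abundant *Cdk4*, at 117 and 119 against 129 and 155 CPM. Both CDK inhibitor genes called, *Cdkn1a* (p21) and *Cdkn2c* (p18), were higher, *Cdkn1a* from 17 and 23.2 to 39.9 and 43.6 CPM (1.06 ± 0.19 SE, adjusted p = 0.0053).

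Genes of mitosis had the same direction. Mitotic kinases and checkpoint genes were called higher in 21 of 23 (median 1.71), kinetochore genes in 21 of 30 (1.54), spindle motors and microtubule binders in 23 of 25 (1.72), condensins and cohesins in 12 of 19 (1.37), and cytokinesis genes in 13 of 19 (1.19). Among the 30 kinetochore genes, 4 passed the filter through YAP5SA alone, as did 2 of the condensins and cohesins. In the lists of mitotic kinases and of cytokinesis 1 gene each did so. Homologous recombination and Fanconi genes, given below, held 2 such genes. *Pkmyt1*, which holds CDK1 inactive before mitosis, rose from 12.9 and 9.47 to 56 and 90.7 CPM, and *Cdc25c*, which removes that block, from 5.21 and 3.07 to 21.7 and 19.6 CPM. *Spag5* (astrin) of the spindle went from 20.4 and 18.1 to 90.6 and 124 CPM and *Ska1* of the kinetochore from 8.26 and 4.31 to 29.3 and 49.4 CPM.
*Ect2*, an exchange factor of the cleavage furrow, rose from 27.6 and 21 to 152 and 200 CPM (2.85 ± 0.20 SE, adjusted p = 7.9e-05), and the furrow scaffold *Anln* (anillin) from 16.9 and 9.99 to 50.9 and 56.9 CPM. The proliferation marker *Mki67* was measured at 55.1 and 56.3 CPM in GFP and 157 and 235 CPM in YAP5SA, and *Top2a*, which untangles chromosomes, at 21 and 12.4 against 57.1 and 85.4 CPM. All YAP5SA libraries lay above the GFP libraries for these genes. The abundant *Cenpa*, the centromeric histone, was not called, with 354 and 334 against 280 and 201 CPM (adjusted p = 0.053).
Homologous recombination and Fanconi genes, which repair broken or crosslinked DNA, were called higher in 16 of 25 (1.24), among them *Fancd2*, from 3.63 and 4.44 to 20.3 and 24.3 CPM, and *Rad54l*, from 3.68 and 5.42 to 19.3 and 31.9 CPM. Of p53 target genes 10 of 24 were called higher and 3 lower. *Fas*, the death receptor, rose from 23.7 and 24.3 to 65.4 and 79.9 CPM, while *Mdm2*, the most abundant p53 target here, gave 208 and 255 against 177 and 202 CPM and was not called.
Of the 171 cell cycle and repair genes, 98 were called without GFP replicate 2, 135 without YAP5SA replicate 2, 150 without GFP replicate 1 and 170 without YAP5SA replicate 1. The counts do not tell more nuclei in cycle from more transcript in each nucleus.

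Promoters of these genes held the elements of cell cycle factors at the following shares. The cell cycle homology region (CHR), TTTGAA or TTCGAA, binds the DREAM and MuvB complexes of late cell cycle genes, and it was present on either strand in 67 of 139 promoters (48.2%) of cell cycle and repair genes called higher and in 11 of 51 (21.6%) of those not called. Over all genes kept the share was 13.3%, for genes called higher 18.5%, and for those called lower 10.5%. The CCAAT box of the factor NF-Y was present in 62.6% and 56.9% of these cell cycle promoters and in 38.5% of all genes kept. The E2F core, TTTGGCG or TTTCGCG, which overlaps itself on opposite strands, was present in 15.1% and 17.6% of them and in 4.32% of all. RefSeq's table of all 32817 promoters gave 19.2%, 37.4% and 2.36% for the 3 elements. The MYC E-box CACGTG was present in 10.1% of promoters of genes called higher, 8.75% of those called lower, 10.4% of all genes kept and 7.15% of the whole table. The AP-1 site TGANTCA was present in 5.6%, 5.06%, 4.39% and 7.81% of the same sets.
*Cdk1* is shown for its CHR and CCAAT elements, and *Mcm5* and *Mcm6*, chosen for their matches after these were seen, for the E2F core, all in capitals (RefSeq on GRCm38.p6, chr10:69352913-69353162 minus strand, chr8:75109259-75109508 plus strand, chr1:128359706-128359955 minus strand). *Cdk1* holds CHR matches that begin 71 and 15 bases before the start and CCAAT boxes at 208, 80 and 48, all 3 of them read on the opposite strand. In *Mcm5* and *Mcm6* the longer capital run is a pair of overlapping E2F cores on opposite strands. Each stretch is marked only for the elements named for it. *Cdk1* also holds an E2F core, TTTCGCG, and *Mcm5* and *Mcm6* hold CCAAT boxes, all left in lower case.
Cdk1: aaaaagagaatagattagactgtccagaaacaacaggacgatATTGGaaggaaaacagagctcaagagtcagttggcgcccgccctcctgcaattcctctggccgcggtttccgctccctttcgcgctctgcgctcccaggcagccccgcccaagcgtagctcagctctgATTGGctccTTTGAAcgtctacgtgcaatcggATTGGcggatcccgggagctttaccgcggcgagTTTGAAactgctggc
Mcm5: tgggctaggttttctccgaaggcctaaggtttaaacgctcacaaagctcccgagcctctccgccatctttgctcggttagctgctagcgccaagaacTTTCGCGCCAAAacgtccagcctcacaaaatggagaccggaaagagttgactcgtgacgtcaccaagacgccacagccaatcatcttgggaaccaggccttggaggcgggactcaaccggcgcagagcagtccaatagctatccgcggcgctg
Mcm6: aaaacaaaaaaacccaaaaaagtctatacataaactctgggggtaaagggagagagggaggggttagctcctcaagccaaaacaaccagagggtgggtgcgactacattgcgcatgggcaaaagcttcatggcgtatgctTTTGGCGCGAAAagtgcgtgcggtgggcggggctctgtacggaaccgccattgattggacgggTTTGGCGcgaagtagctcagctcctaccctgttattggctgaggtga

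**Figure D3:**
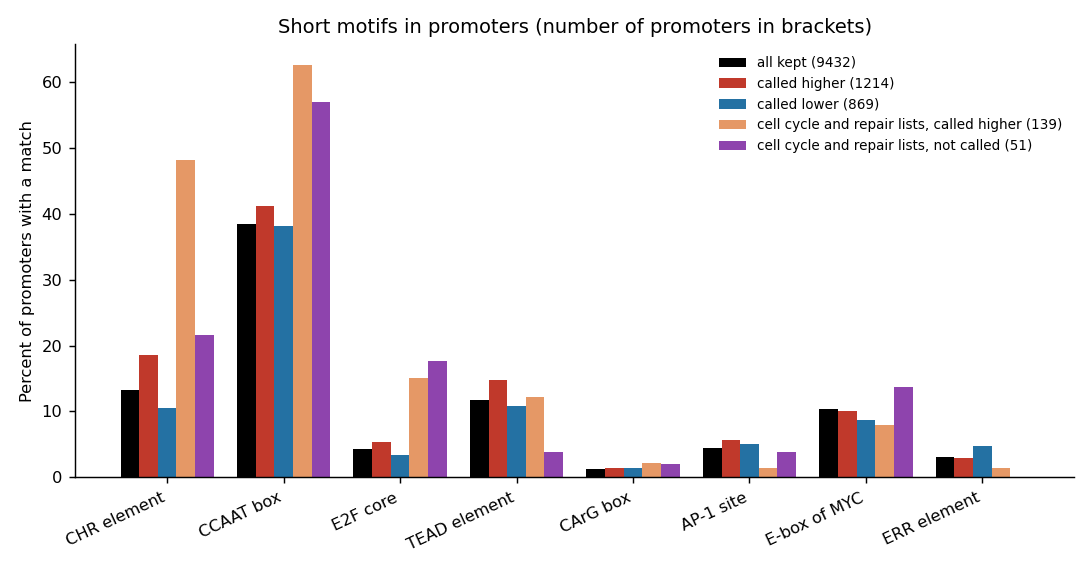
Percent of promoters (y axis) that hold each motif (x axis) on either strand, for all genes kept, genes called higher, genes called lower, and cell cycle and repair genes called higher or not called. The CHR element stands at 48.2% in cell cycle and repair genes called higher against 13.3% of all genes kept.

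Genes of fatty acid oxidation were called in one direction. Of 31 genes of uptake and oxidation kept, 24 were called lower and 0 higher (median -0.91 on the log2 scale). *Acsl1*, which activates fatty acids to acyl-CoA, fell from 665 and 684 to 321 and 199 CPM (-1.40 ± 0.22 SE, adjusted p = 0.00251), and *Cpt1b*, the transferase that admits them to mitochondria in muscle, from 47.8 and 64.8 to 27.4 and 24.7 CPM (-1.10 ± 0.18 SE, adjusted p = 0.00368). *Mlycd*, which degrades the CPT1 inhibitor malonyl-CoA, fell from 218 and 175 to 80 and 65.8 CPM. The groups did not overlap for any of them. Of the 24, 15 were called without GFP replicate 1 and 11 without GFP replicate 2. In stores of glycogen and lipid 14 of 26 genes were called lower and 1 higher (median -0.68). The lipid droplet protein *Plin5* fell from 135 and 100 to 62.7 and 30.9 CPM and *Dgat2*, which makes triglyceride, from 42.1 and 45.3 to 16.6 and 9.67 CPM, whereas *Gyg*, the primer of glycogen, rose from 46 and 43 to 135 and 165 CPM.
Some genes of steps that feed and turn the TCA cycle were called lower too, and 0 of them higher. Over all genes kept 9.27% were called lower, and 21.4% in the highest of 5 equal classes by GFP level. Of pyruvate dehydrogenase and its kinases 6 of 10 were called lower (median -0.57), and of the TCA cycle 6 of 23 (26.1%, median -0.38). These calls depended on single libraries. Of the 6 of pyruvate dehydrogenase and its kinases, 1 was called without GFP replicate 1 and 0 without GFP replicate 2, without YAP5SA replicate 2 or without the replicate block. Of the 6 of the TCA cycle there were 3, 0, 2 and 2. *Ogdh*, of the oxoglutarate dehydrogenase complex, fell from 793 and 905 to 535 and 377 CPM. *Pdk1*, a kinase that inactivates pyruvate dehydrogenase, fell from 126 and 159 to 87.5 and 96.4 CPM, and *Dlat*, a subunit of that enzyme, from 158 and 135 to 119 and 68.9 CPM.
The regulators of this programme had 9 of 23 genes called lower and 0 higher (median -0.63). *Esrra*, an orphan receptor that drives mitochondrial genes, fell from 703 and 622 to 383 and 281 CPM (-1.01 ± 0.19 SE, adjusted p = 0.00582), its coactivator *Ppargc1b* from 85.4 and 88.1 to 41.3 and 32.1 CPM, and *Rxrg*, a partner of PPAR receptors, from 66.9 and 59.9 to 36.3 and 9.17 CPM. *Ppargc1a*, at 116 and 177 against 95.1 and 66.5 CPM, *Ppara* and *Esrrg* lay lower in both batches but were not called (adjusted p of 0.0853, 0.0888 and 0.0803). *Mlxipl* (ChREBP), a glucose-sensing factor, fell from 260 and 257 to 103 and 56.8 CPM.
The ERR element AAGGTCA was present in 4.83% of promoters of genes called lower, 2.97% of those called higher, 3.05% of all genes kept and 4.72% of all promoters of RefSeq's table.

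Nuclear genes of the respiratory chain showed no common direction. In complex I 5 of 36 genes were called higher and 5 lower (median 0.11), for example *Ndufa1*, at 34.5 and 42.6 against 57.2 and 85.6 CPM, and *Ndufb10*, at 290 and 258 against 203 and 122 CPM. In complexes III, IV and V 3 of 37 were called higher and 1 lower. Glycolysis was mixed as well, with 5 of 25 called higher and 6 lower. The transporter *Slc2a1* (GLUT1) rose from 8.41 and 4.37 to 18.7 and 50.9 CPM and *Aldoc*, an aldolase, from 0.999 and 0.522 to 4.44 and 4.02 CPM, whereas *Eno3*, the muscle enolase, fell from 1246 and 1225 to 817 and 490 CPM and *Pfkfb2*, which sets the activator of phosphofructokinase, from 319 and 338 to 186 and 102 CPM.
Of creatine and adenylate genes 2 of 21 were called higher and 5 lower, with *Ckb*, the brain-type creatine kinase, raised from 171 and 143 to 386 and 505 CPM and *Ak1*, the muscle adenylate kinase, lowered from 267 and 281 to 162 and 107 CPM. *Mfn1*, a mitofusin, fell from 1160 and 1356 to 787 and 543 CPM.
Over the metabolic lists 89 distinct genes were called lower and 13 higher of 306 kept. The losses depended on the libraries used, since 48 of the 89 were called without GFP replicate 1, 19 without GFP replicate 2, 44 without YAP5SA replicate 2 and 88 without YAP5SA replicate 1. Of the 13 genes called higher, 5 were called without GFP replicate 1, 3 without GFP replicate 2 and 5 without YAP5SA replicate 2. Without the replicate block 49 of the 89 and 7 of the 13 were called.

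**Figure D4:**
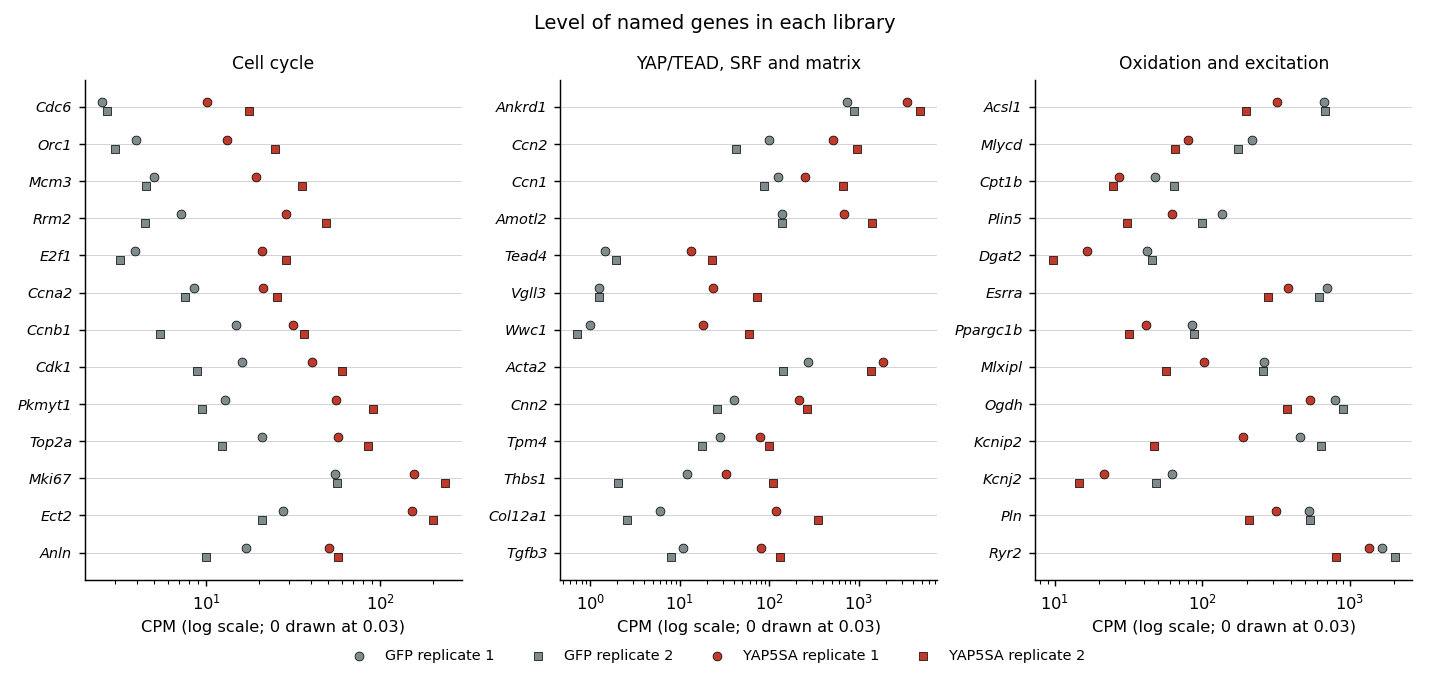
Level (CPM, log scale) of 13 genes each of the cell cycle, of YAP/TEAD targets, serum response and matrix, and of oxidation and excitation, in each library (grey GFP, red YAP5SA, circles replicate 1, squares replicate 2). Red marks lie right of the grey ones in the first and second panels and left of them in the third.

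Genes of excitation had more lower than higher calls, and the adult sarcomere had calls in both directions. Over all genes kept, 9.27% were called lower and 13.0% higher. In the highest of 5 equal classes by GFP level, 21.4% were called lower and 7.67% higher. Of sodium, potassium and pacemaker channels 12 of 27 were called lower and 1 higher (median -0.31). Besides *Kcnip2*, *Kcnj2*, the channel of the inward rectifier current that sets the resting potential, fell from 62.1 and 48.4 to 21.6 and 14.6 CPM (-1.62 ± 0.20 SE, adjusted p = 8.4e-04) and *Kcnd3*, of the transient outward current, from 21.1 and 21.9 to 12.3 and 6.93 CPM. In calcium cycling 6 of 26 were called lower and 2 higher. *Pln*, phospholamban, fell from 526 and 539 to 318 and 206 CPM, *Asph*, whose gene also encodes the junctional protein junctin, from 641 and 608 to 358 and 165 CPM, and the release channel *Ryr2* from 1661 and 2034 to 1352 and 812 CPM, a call lost without GFP replicate 2 or YAP5SA replicate 2. The pump *Atp2a2* (SERCA2a) had 3571 and 4269 against 3289 and 2244 CPM and was not called.
In the adult sarcomere 22 of 29 genes had a negative fold change (median -0.47). Of the 29, 4 were called lower (13.8%) and 3 higher (10.3%), near the shares over all genes kept. *Tcap* (telethonin) fell from 248 and 330 to 149 and 126 CPM. *Myh6*, the adult cardiac myosin, had 17908 and 28036 CPM in GFP and 13091 and 8647 CPM in YAP5SA, without overlap but short of the threshold (-1.05 ± 0.36 SE, adjusted p = 0.0641), and so had *Tnni3*, the adult troponin I, at 3182 and 4417 against 2589 and 1888 CPM (adjusted p = 0.0685). *Myh7*, the fetal counterpart of *Myh6*, was not called either (adjusted p = 0.128). Of intercalated disc genes 5 of 24 were called lower and 2 higher, with *Xirp2* from 182 and 188 to 94.6 and 84.5 CPM and the desmosomal cadherin *Dsc2* from 301 and 286 to 184 and 110 CPM. *Irx4*, a ventricular factor, fell from 355 and 391 to 195 and 128 CPM and *Prox1*, a homeobox factor of muscle and lymphatic cells, from 77.2 and 63.8 to 43.8 and 31.1 CPM.
Genes of skeletal muscle and of cardiac stress had more higher than lower calls. Of 37 skeletal and embryonic muscle genes 18 fell below the filter and 19 were kept, of which 10 were called higher and 1 lower. Of the 19, 7 passed the filter through YAP5SA alone, so this share is set in part by the filter. *Ankrd2*, a relative of *Ankrd1*, rose from 0.526 and 0.196 to 8.61 and 21.1 CPM. In the list of natriuretic peptides and stress genes 8 of 21 were called higher and 1 lower. The natriuretic peptides *Nppa* and *Nppb*, markers of wall stress, went from 12.7 and 9.73 to 25.6 and 24.7 CPM and from 330 and 166 to 520 and 869 CPM, and *Lmcd1*, a LIM protein of hypertrophy, from 15.9 and 13.5 to 79 and 115 CPM.
Over the muscle lists 36 distinct genes were called lower and 29 higher of 192 kept. Without GFP replicate 2 these were 10 and 11, without YAP5SA replicate 2, 24 and 21, and without GFP replicate 1, 30 and 19.

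Ribosomal protein and mitochondrial mRNAs were almost all called higher. Of 57 cytosolic ribosomal protein genes 51 were called higher and 0 lower, and all 57 had a positive fold change (median 0.89, or 0.54 in batch 1 and 1.11 in batch 2). Their summed level was 5203 and 4598 CPM in GFP and 7528 and 10102 CPM in YAP5SA. *Rpl10a* rose from 414 and 321 to 637 and 999 CPM and *Rps16* from 64.9 and 56.7 to 117 and 177 CPM. All 10 mitochondrial genome mRNAs kept were called higher (median 0.95), from a summed 11955 and 12370 to 19689 and 26884 CPM, with *mt-Co1* at 6747 and 6241 against 11300 and 13958 CPM and *mt-Cytb* at 1865 and 2183 against 3088 and 4865 CPM.
Mature mRNAs of both kinds lie mostly outside the nucleus, and the samples were nuclei. The nuclear RNA *Malat1* gave 853 and 864 against 745 and 819 CPM and was not called (adjusted p = 0.61). How much RNA from outside the nucleus each library carried, and its part in these rises, was not tested. Reads at several places made up 2.9% and 3.07% of the GFP and 3.392% and 4.193% of the YAP5SA libraries, and unmapped reads 3.147% and 3.03% against 3.613% and 3.627%, so that both were higher in YAP5SA. The share outside gene models ran from 9.43% to 9.835%. Copies of both kinds of gene elsewhere in the genome share reads with them, so single members are uncertain. Without GFP replicate 2 only 2 of the 51 ribosomal and 2 of the 10 mitochondrial genes were called, and without YAP5SA replicate 2 there were 25 and 9. Without the replicate block 46 and 6 were called. Ribosome biogenesis genes were called higher in 9 of 28 and lower in 0, among them *Nop58*, a core protein of small nucleolar particles, from 41.2 and 31.6 to 85.3 and 133 CPM, and without GFP replicate 2 just 1 of the 9 was called.

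Several secreted signals were called higher. Of 30 cytokine and chemokine genes 12 fell below the filter and 6 passed through YAP5SA alone, which sets the shares in part. Of the 18 kept, 10 were called higher and 1 lower, with the monocyte attractants *Ccl2* from 2.94 and 3.79 to 16.2 and 50 CPM, *Ccl12* from 0.789 and 1.7 to 6.03 and 13.3 CPM and *Ccl7* from 1.84 and 1.04 to 7.55 and 15.3 CPM. These genes lie close together on chromosome 11. In the TGF-beta and BMP list 9 of 24 were called higher and 0 lower, and 3 of the 24 passed the filter through YAP5SA alone. *Tgfb3* rose from 10.9 and 8.03 to 79.6 and 130 CPM (3.48 ± 0.33 SE, adjusted p = 2.6e-04), *Inhba*, the activin A subunit, from 4.1 and 0.783 to 28.4 and 91.2 CPM and *Bmp4* from 11.2 and 6.92 to 25.4 and 77.8 CPM.
*Nrg1* and *Tgfa*, ligands of ERBB receptors, rose from 2.37 and 1.5 to 7.42 and 11.3 CPM and from 1.16 and 0.457 to 4.9 and 7.83 CPM, and *Spry1*, a feedback inhibitor of that pathway, from 56.4 and 30.3 to 98.4 and 161 CPM. Angiogenic ligands showed 3 of 23 higher (13%) and 2 lower (8.7%), near the 13.0% and 9.27% over all genes kept. *Vegfa*, the most abundant of them, had 2731 and 2927 against 1998 and 1663 CPM and was not called (adjusted p = 0.0566). In insulin and IGF signalling 8 of 22 were called higher and 1 lower, and *Igf2bp1*, an oncofetal RNA-binding protein, went from 1.16 and 2.09 to 36.2 and 63.9 CPM with nearly equal log2 differences of 4.84 and 4.86 in the batches, while the insulin receptor *Insr* fell from 534 and 479 to 357 and 269 CPM.
Heat shock and unfolded protein response genes were called higher in 13 of 25 and lower in 1, with *Pdia6*, a disulphide isomerase of the endoplasmic reticulum, from 44.7 and 54.7 to 122 and 216 CPM. Of all signalling genes 57 were called higher and 11 lower of 193 kept, and without GFP replicate 2 these were 18 and 0, without YAP5SA replicate 2, 30 and 4, and without GFP replicate 1, 38 and 5. Without the replicate block 44 and 7 were called.

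Markers of other heart cells were present, and some were called. Summed CM markers stood at 59688 and 79487 CPM in GFP and 48811 and 35525 CPM in YAP5SA, with 2 of 13 called lower and 2 higher, and *Pcm1*, the target of the pulldown, at 54.4 and 65.6 against 74.7 and 66.6 CPM. Fewer CM nuclei and less of these RNAs in each nucleus cannot be told apart in bulk samples. Fibroblast markers were called higher in 1 of 13, with sums of 1602 and 997 CPM in GFP and 1727 and 1075 CPM in YAP5SA, and endothelial markers in 1 of 15, with 817 and 636 against 869 and 703 CPM.
Macrophage markers were called higher in 3 of 11 kept, *Lyz2*, *C1qa* and *Mertk*, and the summed level of the list was 89.1 and 125 CPM in GFP and 131 and 189 CPM in YAP5SA. *Csf1r* was not called, at 20.2 and 27.1 against 22.9 and 37.1 CPM, and *Adgre1* and *Cd163* fell below the filter. Mural and smooth muscle markers had 4 of 11 higher and 1 lower. Of the 11, 6 had a negative fold change, and the median was -0.037 on the log2 scale. The summed level of the list was 1865 and 1823 CPM in GFP and 3270 and 2473 CPM in YAP5SA. *Acta2* alone went from 272 and 142 to 1842 and 1349 CPM, more than the rise of the sums. Epicardial and mesothelial markers were called higher in 4 of 8 kept with sums of 93.9 and 78.2 against 209 and 353 CPM, led by *Wt1* (ENSMUSG00000016458), a transcription factor of the epicardium, from 13.8 and 13.6 to 92.9 and 155 CPM (3.17 ± 0.30 SE, adjusted p = 2.6e-04). Of these 8 markers, 2 passed the filter through YAP5SA alone, which sets the share in part. *Upk3b*, *Upk1b* and *Msln*, which mark mesothelium more narrowly, were kept and not called. The part of other cells in the changes above was not tested. Without GFP replicate 2, 4 of the 17 marker genes called higher and 0 of the 3 called lower kept their call, without GFP replicate 1, 11 and 2, and without YAP5SA replicate 2, 9 and 1. Without the replicate block there were 11 and 2.

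**Figure D5:**
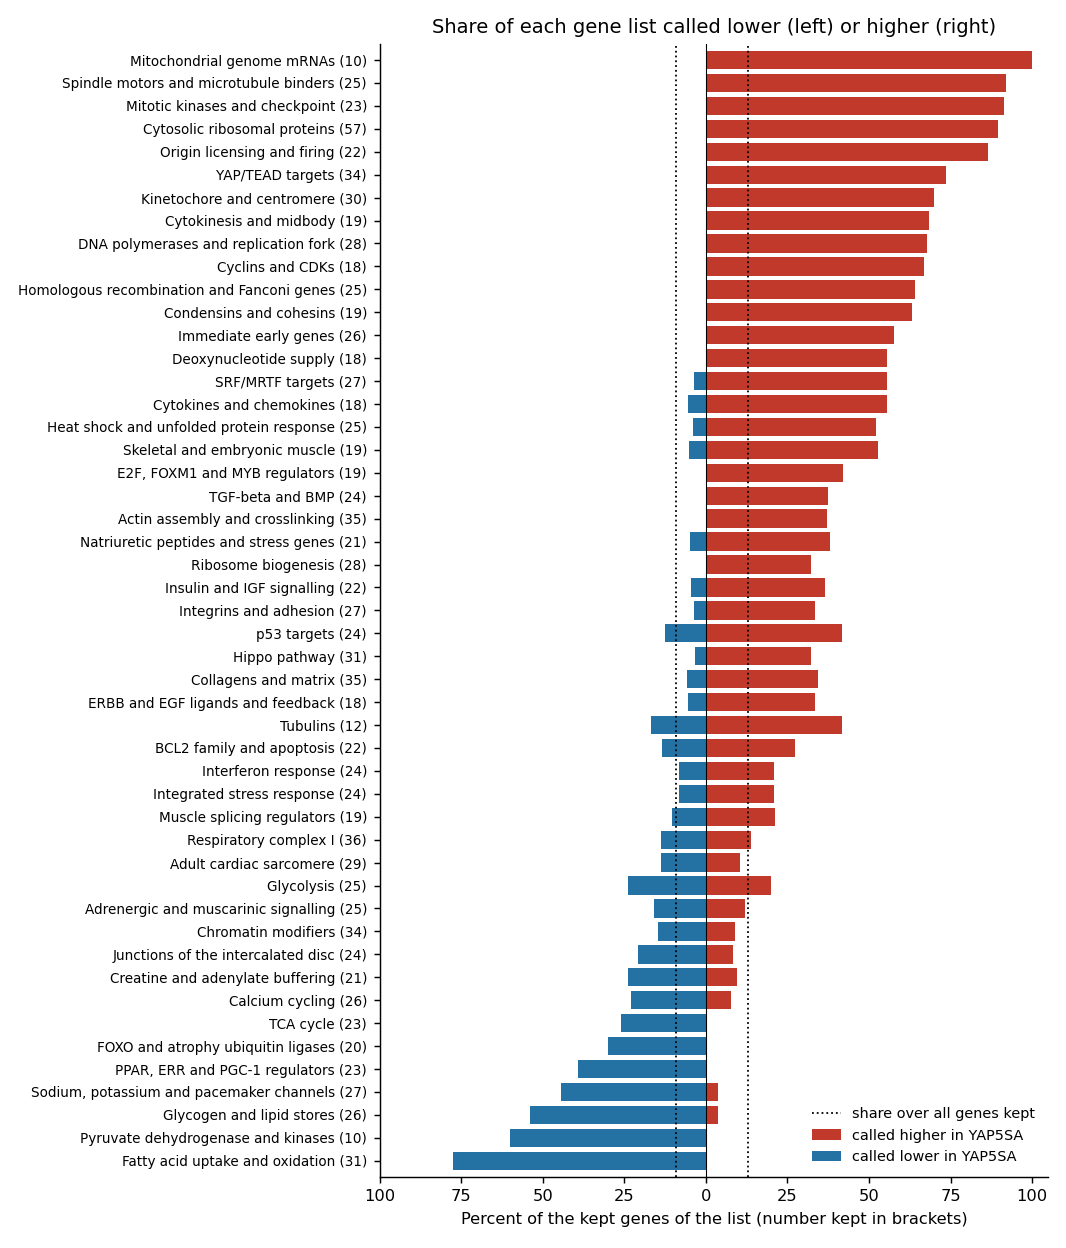
Percent of the kept genes of each list called lower (blue, to the left) or higher (red, to the right) in YAP5SA, for lists other than cell type markers with at least 10 genes kept and at least 6 called, ordered by the difference of the shares. Dotted lines mark the shares over all genes kept, 13.0% higher and 9.27% lower, and the number of genes kept follows each name.

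By mean level over the 4 libraries, 10.5% of the genes in the lowest of 5 equal classes were called higher and 3.15% lower, and in the highest class 13.2% and 17%. Of the genes called higher, 275 passed the filter through YAP5SA alone. Protein-coding genes (12149 kept) were called higher in 13.3% and lower in 9.3%, lincRNAs (272) in 13.6% and 11%, and models antisense to another gene (192) in 6.25% and 7.29%. On the X chromosome 15.7% of 408 genes were called higher and 5.39% lower.
Neighbouring kept genes were called in one direction at several places, and how often such runs arise at the shares called was not tested. The longest run of kept genes called in one direction held 9 genes of the X chromosome (135797594 to 136271978 of GRCm38), all higher, with *Bhlhb9*, *Gprasp2*, *Arxes2*, *Arxes1*, *Tceal8*, *Tceal5*, *Bex1*, *Tceal9* and *Bex3*. *Bex3* went from 14 and 16.7 to 34.6 and 54.1 CPM, *Bex1* from 11.4 and 6.14 to 24.9 and 33.4 CPM, and *Arxes1*, whose sequence is close to that of *Arxes2*, from 0.473 and 0.0653 to 4.11 and 12 CPM. On chromosome 17 a run of 7 (35681567 to 35875596) held *Ddr1*, a collagen receptor that rose from 96 and 113 to 247 and 568 CPM, *Ier3*, *Flot1*, *Tubb5*, *Mdc1*, *Nrm* and *Ppp1r18*. On chromosome 7 a run of 5 (13277283 to 15967567) held *Lig1*, the ligase of replicating DNA, from 12 and 14 to 52.1 and 79.9 CPM, *Pla2g4c*, *Selenow*, *Nop53* and *Ehd2*. None of these runs stayed whole without GFP replicate 2. *Arxes2* and *Tceal8* then lost their call on the X chromosome, and *Flot1*, *Mdc1* and *Ppp1r18* on chromosome 17. On chromosome 7 *Pla2g4c*, *Selenow* and *Nop53* did so.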

How the data were processed

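RNA of PCM1-sorted nuclei was read in 6 libraries (2 each of GFP, YAP5SA and YAP6SA). The authors aligned reads to mm10 with STAR and deposited raw counts per Ensembl gene, which was the unit used. Multi-mapped, ambiguous and other reads outside single genes took 21.98% to 23.45% of reads in the 4 libraries compared and were left out of library sizes. Gene counts ran from 14552847 to 18832871, and intervals and floors cover counting error only. Libraries are non-directional, and 147 of the 349 genes named by rule overlap a model on the opposite strand.

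Counts were fitted with edgeR 4.0.16 (quasi-likelihood, TMM, batch and group terms, all 6 libraries; R 4.3.3), with Benjamini-Hochberg adjustment over the 13174 genes kept and a threshold of 0.05. The authors' processing also named edgeR. CPM are TMM-scaled, within-batch log2 differences used a prior count of 2, and the SE was taken from the fold change and its F statistic. Batch came from the labels, where the replicate number marks it. Deviations from group means correlated at 0.0983 between GFP and YAP5SA libraries of the same number, 0.368 between GFP and YAP6SA, and 0.178 between YAP6SA and YAP5SA. Replicates differed by more than sampling noise (a chi-square statistic of 27.7 for each degree of freedom in GFP and 43.6 in YAP5SA). The sources used here do not tie hearts to libraries, so the spread between libraries may be partly technical.

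Genes were named by rule: the 15 most changed in each direction with a mean of at least 10 CPM in the higher group, the 10 most abundant called, the 3 most changed and the most abundant of each of 75 lists, a set of reference genes, and the 3 longest runs of neighbours. The members and lists were chosen with earlier results of these data known. Other scalings, filters, tests (DESeq2 1.42.0, limma-voom 3.58.1, likelihood ratio), thresholds, no replicate block, a 4-library fit and leaving out each library were tried. The fit was tested on simulated counts. Promoters came from RefSeq (GRCm38.p6), matched to 9432 of the genes kept, and motifs were searched on both strands. Some genes that the rule names are not reported here.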

Additional observations from a re-analysis of the deposited data

How the results depend on the processing

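Scaling by size factors or the upper quartile, other filters on low counts, DESeq2, limma-voom, the likelihood ratio test and the 4-library fit kept both counts of called genes within 1.5 times of 1708 higher and 1221 lower, with 1560 to 2066 higher and 1000 to 1572 lower. Without the replicate block, 1333 genes were called higher and 765 lower, and with the 4 libraries alone and no replicate block, an alternative added after seeing the data, 1249 and 614. An FDR of 0.01 left 784 and 307, and one of 0.1 gave 2277 and 1900. Leaving out 1 library at a time gave 618 to 2513 genes higher and 214 to 2264 lower, lowest without GFP replicate 2 and highest without YAP5SA replicate 1, where the single YAP5SA library is assumed to vary like the other groups. Of the genes called, 542 higher and 163 lower were called without each of the 4 libraries in turn, and 0 were called in the opposite direction in any alternative.

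Among the genes named in this text, the fold changes of 5 that were not called turned sign when 1 library was left out. Genes not named were not counted here. *Acta1* (-0.12 with all libraries) ran from -0.58 without YAP5SA replicate 1 to 0.58 without GFP replicate 1 and was 0.16 without YAP5SA replicate 2. *Actc1* (-0.087) ran from -0.41 to 0.21, *Yap1* (-0.17) from -0.39 to 0.049 and *Wwtr1* (0.11) from 0.40 to -0.19, in each case from YAP5SA replicate 1 to YAP5SA replicate 2 left out. *Ddx3y* (0.079) ran from -0.20 without GFP replicate 1 to 0.40 without GFP replicate 2. The cause was not tested. With 2 libraries a group, small changes and genes near the floor of 3 counts are the least certain.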

Other observations

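Other lists also held calls, some at shares near those over all genes kept, which were 13.0% higher and 9.27% lower. Imprinted growth genes were called higher in 5 of 16 and lower in 0 (median log2 fold change 0.51). *Peg3*, a zinc finger gene expressed from the paternal allele, rose from 245 and 348 CPM in GFP to 751 and 1251 CPM in YAP5SA, and *Plagl1* from 87.7 and 90.4 to 176 and 285 CPM. In the Wnt pathway 3 of 23 were called higher (13%, the share over all genes kept) and 0 lower. Among the 23, 3 passed the filter through YAP5SA alone. The receptor *Fzd2* rose from 15.2 and 17 to 55.7 and 75.5 CPM. The integrated stress response list had 5 of 24 higher and 2 lower, and 3 of the 24 passed the filter through YAP5SA alone. *Slc7a5*, an amino acid transporter of that list, rose from 2.94 and 1.7 to 20.1 and 32.8 CPM. All YAP5SA libraries lay above the GFP libraries for these genes.

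Circadian clock genes were called lower in 3 of 19, and FOXO and atrophy ubiquitin ligase genes in 6 of 20, with 0 higher in either. *Asb15*, a ubiquitin ligase adaptor of muscle, fell from 95.3 and 104 to 45.4 and 31.2 CPM. Chromatin modifiers had 3 of 34 called higher and 5 lower (median -0.15). *Suv39h1*, a histone H3 methyltransferase, rose from 10.1 and 11.4 to 21.7 and 30.5 CPM, while *Dot1l*, another, fell from 935 and 980 to 633 and 526 CPM, and neither was called without GFP replicate 2. Of muscle splicing regulators 4 of 19 were called higher and 2 lower, led by *Mbnl3*, from 1.1 and 1.31 to 14.1 and 28.6 CPM. Interferon response genes had 5 of 24 higher and 2 lower, with *Ifit2* from 8.1 and 8.62 to 25.7 and 41.3 CPM and *Mx2* from 12 and 16.3 to 6.09 and 2.46 CPM.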
